A study of Mus musculus with 4 samples.

Results

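The 7 genes described here encode the parts of the major histocompatibility complex (MHC) that carry peptides to the cell surface. They were chosen by name as the rows of the deposited table of normalised counts for MHC class I (H2-K1, H2-D1 and B2m) and for MHC class II with its invariant chain (Cd74, H2-Aa, H2-Ab1 and H2-Eb1), 7 of the 17259 genes listed. All 7 passed the filter of a mean normalised count of at least 10. RNA from brown adipose tissue (BAT), the heat-producing fat of mice, was sequenced in 2 libraries of isolated mitochondria (BAT-Mito) and 2 libraries of BAT-total, all from wild-type (WT) animals. The treatment label of the latter names tissue from which mitochondria had been taken out, while the study also speaks of total BAT lysates for such libraries, so that BAT-total may hold either. Such pairs of fractions were made to learn which transcripts accompany mitochondria. For its heart preparations the study describes digitonin and RNase A on the isolated mitochondria before RNA extraction, and whether BAT was treated in this way is not stated. Strain, sex, age and the number of animals per library were not given in the labels. Because nothing states that the 2 libraries of a group came from separate animals, p-values measure only the spread between libraries, which may be technical.

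Class I molecules are found on nearly all nucleated cells. A heavy chain (H2-K1, H2-D1) pairs with beta-2-microglobulin (B2m) in the endoplasmic reticulum and presents peptides of cytosolic proteins to CD8+ T cells. Class II molecules are mostly restricted to antigen-presenting cells such as macrophages, dendritic cells and B cells, although other cells can make them when stimulated. Their alpha chains (among them H2-Aa) and beta chains (among them H2-Ab1 and H2-Eb1) assemble with the invariant chain (Cd74). It guides them to the endosomes where peptides are loaded for CD4+ T cells. All 7 proteins are nuclear-encoded and made on the endoplasmic reticulum.

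Read counts of the class I heavy chains depend on how alike their sequences are, since reads that align to several positions had been left out by the authors. In GENCODE M21 (GRCm38), 24 of the 1545 windows of 75 bases in the H2-K1 transcript (1.55%) occur exactly in another gene, and 140 of 2028 windows (6.90%) in the H2-D1 transcript. H2-D1 shares most of them with H2-Q1 (110 windows). B2m, Cd74, H2-Aa, H2-Ab1 and H2-Eb1 share 0 windows. The longest coding run common to H2-K1 and H2-D1 is 91 bases of exon 4, longer than a read. It is shown with 12 bases on either side, on the strand of each gene, because reads inside it cannot be given to one of these genes. The capitals mark the 2 bases at which the 115 bases differ. The stretches lie at chr17:33997331-33997445 (minus strand) and chr17:35265899-35266013 (plus strand).
H2-K1: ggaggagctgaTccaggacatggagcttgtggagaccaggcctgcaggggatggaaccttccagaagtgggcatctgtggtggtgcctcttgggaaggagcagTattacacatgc
H2-D1: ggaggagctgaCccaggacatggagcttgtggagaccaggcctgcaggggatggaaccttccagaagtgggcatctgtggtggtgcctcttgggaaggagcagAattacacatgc

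Promoters of class I and class II genes are known to share a regulatory module with a CCAAT element, and class I promoters to hold elements bound by interferon regulatory factors (IRF). The 200 bases before the RefSeq start (GRCm38.p6) are shown for a pair of genes per class to let these elements be compared. Capitals mark, on either strand, the CCAAT box (searched as ATTGG), the core of the cyclic AMP response element (searched as TGACG) and the IRF core (searched as AANNGAAA). All promoters were searched in the same way, and matches may overlap. The windows are chr17:34287824-34288023 (minus strand) for H2-Aa, chr17:34305667-34305866 (plus strand) for H2-Eb1, chr17:34000348-34000547 (minus strand) for H2-K1 and chr2:122147487-122147686 (plus strand) for B2m.
H2-Aa: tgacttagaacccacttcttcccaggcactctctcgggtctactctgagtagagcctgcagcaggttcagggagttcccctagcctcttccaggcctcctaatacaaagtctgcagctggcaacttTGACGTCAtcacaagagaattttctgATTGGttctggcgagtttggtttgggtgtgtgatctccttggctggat
H2-Eb1: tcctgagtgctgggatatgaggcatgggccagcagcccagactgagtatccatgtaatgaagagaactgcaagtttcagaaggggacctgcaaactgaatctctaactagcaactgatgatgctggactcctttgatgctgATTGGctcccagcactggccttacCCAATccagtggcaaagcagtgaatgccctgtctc
H2-K1: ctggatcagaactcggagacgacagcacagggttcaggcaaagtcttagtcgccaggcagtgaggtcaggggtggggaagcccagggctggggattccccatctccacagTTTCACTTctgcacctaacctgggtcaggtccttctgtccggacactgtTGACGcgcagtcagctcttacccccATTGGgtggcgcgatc
B2m: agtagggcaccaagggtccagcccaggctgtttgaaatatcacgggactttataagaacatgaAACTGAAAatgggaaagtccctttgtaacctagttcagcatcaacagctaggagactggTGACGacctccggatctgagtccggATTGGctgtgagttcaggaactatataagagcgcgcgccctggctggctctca

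Of the 7 genes, 5 had a promoter in the RefSeq table, and Cd74 and H2-Ab1 had no entry. All 5, H2-D1 included, carried ATTGG within 250 bases before the start, against 33.8% of 32851 promoters of this length. On the strand of the gene TGACG started 25 bases before ATTGG in H2-K1, H2-D1 and B2m and 26 bases before it in H2-Aa, and it was found on neither strand in H2-Eb1. Among all promoters 17.8% held TGACG. The IRF core was found in H2-K1, H2-D1, B2m and, beyond the stretch shown, H2-Aa, and in 21.3% of all promoters. These matches describe letters, not bound sites.

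Few reads stood behind the member values. Mitochondrially encoded transcripts filled 95.3% and 95.5% of the BAT-Mito libraries, which left 1248730 and 1129485 reads on nuclear genes in replicates 1 and 2. Of these only 49420 and 58238 fell on nuclear protein-coding genes. The 7 members took 128 and 150 of these reads. The authors had divided counts by size factors, and 1 read was worth 8.32 units in BAT-Mito replicate 1 and 6.90 in replicate 2. Reads behind a unit of BAT-total are unknown.

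Class II transcripts were at higher normalised counts in BAT-Mito than in BAT-total for all 4 genes. Of class I, H2-K1 and H2-D1 were lower. B2m had a mean of 228 in BAT-Mito against 176 in BAT-total, with BAT-Mito libraries on either side of BAT-total. The mean log2 fold change (BAT-Mito minus BAT-total) was 1.56 over the 4 class II genes and -0.54 over the 3 class I genes, against a median of -1.23 over all 8215 genes tested. With limma, 0 of the 7 genes were called at an adjusted p under 0.05, in either direction, where 0.803% of all genes tested were called higher and 4.41% lower. At an unadjusted p under 0.05, H2-Ab1 and H2-Eb1 were higher (3.20% of all genes tested were higher at that level) and 0 members were lower (14.9% of all genes). With edgeR on reads, Cd74, H2-Ab1 and H2-Eb1 were called higher (3.06% of all genes were called higher and 0.596% lower), and DESeq2 called the same 3 genes (3.08% higher and 0.268% lower). Both of these fits take the BAT-total values as reads, which they are not. Since the tissue is a mixture, a difference in the number of cells of a type cannot be told apart from a difference in RNA per cell.

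Cd74, the invariant chain (ENSMUSG00000024610, chromosome 18, 60803848 to 60812652), had 191 and 304 normalised counts in BAT-Mito, from 23 and 44 reads, and 98 and 75 in BAT-total. Both BAT-Mito libraries lay above both BAT-total libraries. Its log2 fold change was 1.48 (SE 0.50; adjusted p 0.277 with limma). Fitted to reads, edgeR gave 2.09 with an adjusted p of 0.0381.

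H2-Ab1, a class II beta chain (ENSMUSG00000073421, chromosome 17, 34257689 to 34269419), showed the highest fold change of the 7 members. It had 108 and 228 normalised counts in BAT-Mito, from 13 and 33 reads, and 38 in each BAT-total library. The groups did not overlap, although BAT-Mito replicate 2 was 2.11 times replicate 1. The log2 fold change was 2.02 (SE 0.58; adjusted p 0.241 with limma). DESeq2 on reads gave 2.84 with an adjusted p of 0.00201.

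H2-Eb1, the second class II beta chain (ENSMUSG00000060586, chromosome 17, 34305867 to 34316674), had 58 and 76 normalised counts in BAT-Mito, from 7 and 11 reads, and 23 and 21 in BAT-total. Of the class II chains its BAT-Mito libraries were closest to each other. The log2 fold change was 1.55 (SE 0.43; adjusted p 0.235 with limma). It is the member that limma called when no filter on low values was applied (adjusted p 0.0394 over 17259 genes, of which 0.829% were called higher).

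H2-Aa, the class II alpha chain among the members (ENSMUSG00000036594, chromosome 17, 34282744 to 34287823), had few reads. It had 42 and 97 normalised counts in BAT-Mito, from 5 and 14 reads, and 22 and 35 in BAT-total. The lower BAT-Mito value and the higher BAT-total value differed by less than 1 read of BAT-Mito replicate 1. The log2 fold change was 1.17 (SE 0.66; adjusted p 0.380 with limma). It was 1.77 without BAT-Mito replicate 1 and 0.58 without replicate 2, and was called in neither fit.

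Thus, for each of the 4 class II genes both BAT-Mito libraries exceeded both BAT-total libraries, an order found for 8.59% of all genes tested. Their log2 fold changes were higher than those of 93.1% (H2-Aa) to 95.4% (H2-Ab1) of the genes tested.

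B2m is the light chain of class I (ENSMUSG00000060802, chromosome 2, 122147686 to 122153083). With the scaling as deposited it differed little between the groups on average and strongly between the mitochondria libraries. It had 325 and 131 normalised counts in BAT-Mito, from 39 and 19 reads, and 177 and 175 in BAT-total. The BAT-total libraries lay between those of BAT-Mito. The log2 fold change was 0.23 (SE 0.64, adjusted p 0.822 with limma). It was 0.88 with equal totals of nuclear protein-coding genes, 0.97 with edgeR and 1.12 with DESeq2, and was called in none of these. Without BAT-Mito replicate 1 it became -0.42. Without BAT-Mito replicate 2 it was 0.88, with an adjusted p of 0.0363 in limma, in a fit that called 7.57% of all genes higher.

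H2-K1, a class I heavy chain (ENSMUSG00000061232, chromosome 17, 33996017 to 34000347), had 183 and 55 normalised counts in BAT-Mito, from 22 and 8 reads, and 202 and 201 in BAT-total. Replicate 1 of BAT-Mito was close to BAT-total and replicate 2 was well below it. The log2 fold change was -0.996 (SE 0.77; adjusted p 0.479 with limma) and became -0.14 without BAT-Mito replicate 2. Without BAT-Mito replicate 1 it was -1.85, with an adjusted p of 0.0199 in limma, in a fit that called 41.1% of all genes lower.

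H2-D1, the other class I heavy chain (ENSMUSG00000073411, chromosome 17, 35262730 to 35267499), had 158 and 145 normalised counts in BAT-Mito, from 19 and 21 reads, and 246 and 303 in BAT-total. It was the class I member whose BAT-Mito libraries were most alike. The log2 fold change was -0.85 (SE 0.42; adjusted p 0.348 with limma). For H2-K1 and H2-D1 both BAT-Mito libraries lay below both BAT-total libraries, as they did for 52.1% of all genes tested, so that this order is common in the table.

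**Figure D1:**
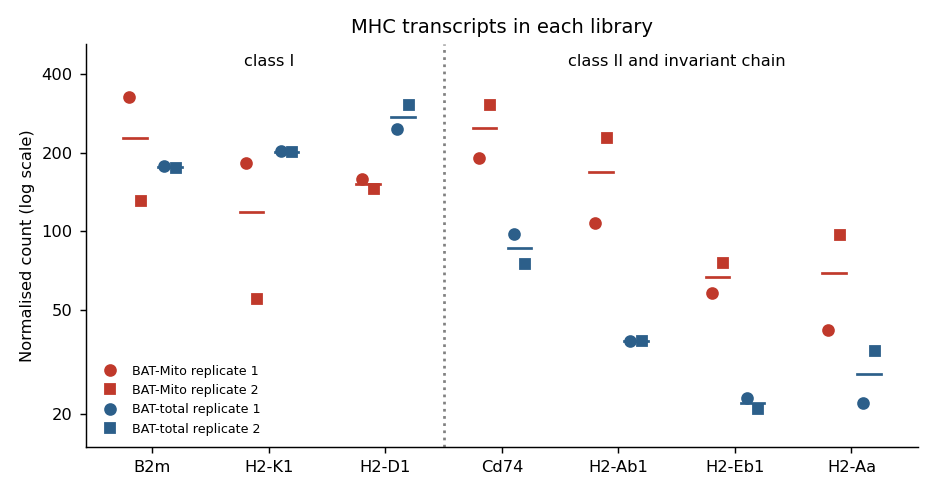
Normalised counts (log axis) of the 7 MHC genes in the 2 BAT-Mito and 2 BAT-total libraries, where each point is a library and each line the mean of 2. The class II genes are higher in both BAT-Mito libraries, from 42 against at most 35 for H2-Aa to 108 against 38 for H2-Ab1, whereas B2m and H2-K1 are spread between the BAT-Mito libraries.

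The sign of these fold changes depends on the scaling, and their order does not. When each library was scaled to an equal total of all genes, class II fell to a mean log2 fold change of -5.06 and class I to -7.23, and with equal totals of nuclear genes to -1.91 and -4.04. With equal totals of nuclear protein-coding genes the means were 2.19 and 0.11. Set against the all-gene median of the same setting, each of the 4 class II genes lay 1.63 to 3.47 above it over the alternatives, and B2m 0.49 to 1.93 above it. H2-K1 ran from -0.94 to 0.91 and H2-D1 from -0.40 to 0.56 on this relative scale, on either side of the median.

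**Figure D2:**
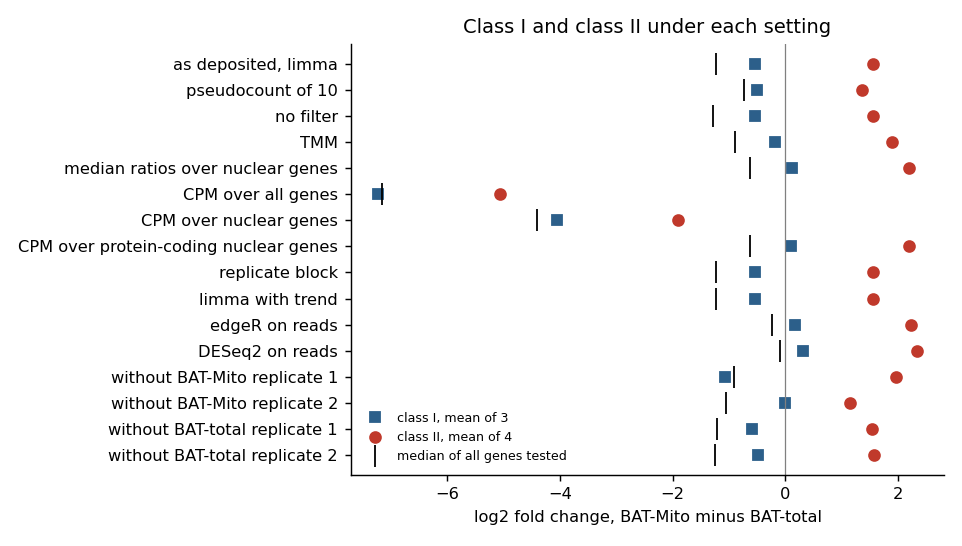
Mean log2 fold change (BAT-Mito minus BAT-total) of the 3 class I genes (squares) and the 4 class II genes (circles) under each setting, with the median of all genes tested as a tick. Class II is to the right of class I wherever both are plotted, also where an equal total of all genes moves both below 0 (-5.06 and -7.23).

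The ratio of class II to class I within a library does not depend on its size factor. Summed over members, class II made up 37.5% (95% Wilson interval 29.6 to 46.1%) of the 128 member reads in BAT-Mito replicate 1 and 68.0% (60.2 to 74.9%) of the 150 reads in replicate 2. These intervals cover counting error only. In BAT-total its share of the summed normalised counts was 22.5% and 19.9%. Both BAT-Mito libraries were above both BAT-total libraries. The lower bound of replicate 1, 29.6%, also exceeded the BAT-total shares. Those shares have no interval, since their reads are unknown, so that the bound does not test a difference between the groups. The intervals of the mitochondria libraries did not overlap each other, so that the replicates differed by more than counting error.

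Expressed as a ratio, there were 0.599 and 2.13 class II counts per class I count in BAT-Mito and 0.290 and 0.249 in BAT-total, which gives 1.36 ± 1.08 and 0.269 ± 0.0288 (SD, n = 2 each). On the log2 scale of mean values per class, class II minus class I was -1.31 and 0.56 in BAT-Mito and -2.44 and -2.50 in BAT-total. The difference of the group means was 2.09, compared with a pooled SD of 0.94 between replicates (1.33 in BAT-Mito and 0.04 in BAT-total). It was 1.16 without BAT-Mito replicate 2 and 3.03 without BAT-Mito replicate 1. No p is given for this score, because its members were chosen with earlier results known.

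**Figure D3:**
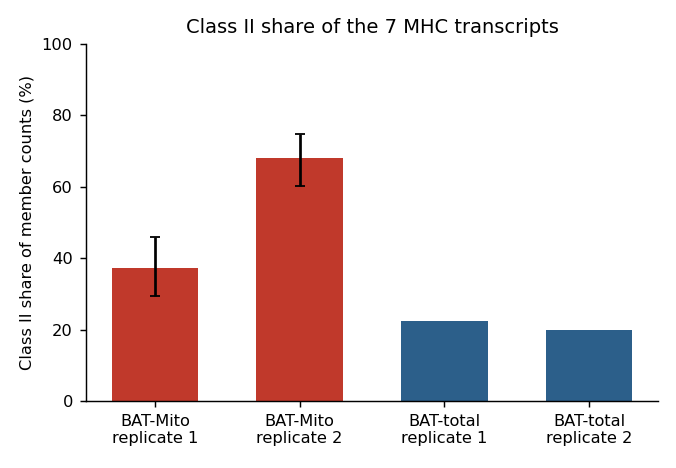
Share of class II (Cd74, H2-Aa, H2-Ab1, H2-Eb1) in the summed normalised counts of the 7 members, in percent, for each library, with 95% Wilson intervals from reads in the BAT-Mito libraries alone. BAT-Mito holds 37.5% and 68.1%, and BAT-total 22.5% and 19.9%.

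The single pairs H2-Ab1 with H2-D1 and Cd74 with B2m showed the same order with different clarity. For H2-Aa with B2m the order was not kept. BAT-Mito replicate 1 had 42 against 325 normalised counts, a lower ratio than BAT-total replicate 2 with 35 against 175. There were 0.684 and 1.57 H2-Ab1 counts per H2-D1 count in BAT-Mito and 0.154 and 0.125 in BAT-total. For Cd74 against B2m the ratios were 0.588 and 2.32 in BAT-Mito and 0.554 and 0.429 in BAT-total, so that BAT-Mito replicate 1 was close to BAT-total. Within class II, H2-Ab1 had 2.57 and 2.35 counts per H2-Aa count in BAT-Mito and 1.73 and 1.09 in BAT-total. Within class I, the ratio of H2-K1 to H2-D1 was 1.16 and 0.379 in BAT-Mito, on both sides of the 0.821 and 0.663 in BAT-total.

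Levels of different genes were compared per kilobase of exon (GENCODE M21). In BAT-total B2m was highest, with 205 ± 1.64 normalised counts per kb (SD, n = 2), followed by H2-D1 (106 ± 15.6), H2-K1 (68.6 ± 0.241), Cd74 (51.5 ± 9.69), H2-Ab1 (14.8 ± 0), H2-Eb1 (11.3 ± 0.727) and H2-Aa (7.50 ± 2.42). No neighbours in this order overlapped, and all class I genes stood above all class II genes. In BAT-Mito the order was B2m (265 ± 160 per kb), Cd74 (147 ± 47.6), H2-Ab1 (65.4 ± 33.04), H2-D1 (58.7 ± 3.56), H2-K1 (40.5 ± 30.8), H2-Eb1 (34.5 ± 6.55) and H2-Aa (18.3 ± 10.2). There B2m and Cd74 overlapped, as did each neighbouring pair from H2-Ab1 to H2-Eb1, while Cd74 was separate from H2-Ab1 and H2-Eb1 from H2-Aa.

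The other pathway genes are given next, each list beside its fits with 1 BAT-Mito library left out. Those fits take their spread from BAT-total alone, and limma then called 5.68% of all genes higher and 41.1% lower without replicate 1, and 7.57% and 47.0% without replicate 2. Without either BAT-total library, or with the replicate block, 0 genes were called in the whole table. Among 18 further class I and class I-like chains, 15 were listed and 11 tested, with a median log2 fold change of -0.29. With limma, edgeR and DESeq2 0 of them were called, and H2-Q6 was higher at an unadjusted p under 0.05. Without BAT-Mito replicate 1 the median was -1.26, with 1 gene called higher and 4 lower, and without replicate 2 it was -0.03, with 3 higher and 3 lower. The 3 most abundant in BAT-total were Fcgrt, the neonatal Fc receptor, Cd1d1, which presents lipids, and H2-Q10, a secreted class I chain of the liver. Fcgrt had 83 and 97 normalised counts in BAT-Mito and 146 and 155 in BAT-total. Cd1d1 had 17 and 55 against 52 and 50. H2-Q10 stood apart, with 358 and 14 normalised counts in BAT-Mito, from 43 and 2 reads, and 45 and 41 in BAT-total, so that nearly all of its reads came from replicate 1. This is the replicate in which H2-K1 and B2m were also higher, and the part of liver RNA in those values was not tested.

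For the machinery that loads class I molecules the direction depended on 1 library. Of 8 genes tested, limma called 0 higher (0.803% of all genes) and 1 lower (4.41%), and the median was -0.69. It was -2.34 without BAT-Mito replicate 1, with 5 genes called lower, and 0.65 without replicate 2, with 1 called higher and 1 lower. With edgeR and DESeq2 on reads, which called 0 of the 8, the median was 0.43 and 0.58. The gene called lower was Tap2, a subunit of the transporter that brings peptides into the endoplasmic reticulum, with 0 reads in both BAT-Mito libraries and 41 and 23 normalised counts in BAT-total. Against the floor of 3 reads per library it was at least 1.40-fold lower with the scaling as deposited. It was not called with a pseudocount of 10, by edgeR or by DESeq2. The chaperones Canx and Calr and the disulfide isomerase Pdia3, which fold heavy chains, were the most abundant. Canx had 250 and 186 normalised counts in BAT-Mito and 251 and 250 in BAT-total. Calr had 499 and 186 against 225 and 180, and Pdia3 had 208 and 48 against 136 and 141. For Calr, Pdia3 and Tapbp (183 and 7), as for B2m and H2-K1, replicate 1 of BAT-Mito was more than 2 times replicate 2.

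Of the immunoproteasome and its activator, which trim peptides for class I, 3 of 5 genes were tested and 0 called by limma, edgeR or DESeq2, also at an unadjusted p under 0.05 with limma. Without BAT-Mito replicate 2, 1 was called lower. Psme1 had 75 and 90 normalised counts in BAT-Mito and 88 and 67 in BAT-total, Psme2 had 17 and 48 against 35 and 35, and Psmb8 had 8 and 28 against 18 and 9. The inducible subunits Psmb9 and Psmb10 had 0 reads in both BAT-Mito libraries.

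The peptide loading genes of class II were mostly too low to test. Of 12 genes, 9 were listed and 3 tested, the proteases Ctsl and Lgmn and the ubiquitin ligase Marchf8, with a median of -0.16 and 0 calls by limma, edgeR or DESeq2 (limma also 0 at an unadjusted p under 0.05). Leaving out either BAT-Mito library gave 1 call lower and a median above 0 (0.13 without replicate 1 and 0.36 without replicate 2). Ctsl, which degrades the invariant chain in some cells, had 42 and 138 normalised counts in BAT-Mito and 87 and 84 in BAT-total. Lgmn had 33 and 28 against 31 and 21, and Marchf8 had 67 and 7 against 64 and 40. H2-DMa, a chain of the peptide editor, had 0 reads in BAT-Mito, where H2-DMb1 had 2 and 0 reads. Ctss, the protease of antigen-presenting cells that cleaves the invariant chain, had 1 and 2 reads. At this depth these genes could not be compared with the class II chains.

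Among 8 regulators 5 were tested and 0 called by limma, edgeR or DESeq2, again also at an unadjusted p under 0.05 with limma, with a median of -0.27. Without BAT-Mito replicate 1, 1 was called higher, and without replicate 2, 2 were called lower. Creb1 had 17 and 35 normalised counts in BAT-Mito and 48 and 63 in BAT-total, Irf1 had 0 and 21 against 27 and 22, and Nlrc5, the coactivator of class I genes, had 17 and 14 against 12 and 24. Ciita, the coactivator on which class II transcription depends, had 1 read in each BAT-Mito library and 6 and 2 normalised counts in BAT-total.

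Of the cells that make class II, macrophages had markers at higher normalised counts in BAT-Mito. Of 10 macrophage markers 9 were listed and 7 tested, and all 7 had a log2 fold change above 0 (18.8% of all genes tested), with a median of 1.97 that changed sign with equal totals of all genes (-4.29) or of nuclear genes (-1.34). In 6 of the 7 both BAT-Mito libraries exceeded both BAT-total libraries (8.59% of all genes). With limma 0 were called and Csf1r, C1qc and Mrc1 were higher at an unadjusted p under 0.05 (3.20% of all genes), whereas edgeR and DESeq2 on reads called Mrc1 and Csf1r (3.06% and 3.08%). Without BAT-Mito replicate 1 limma called 4 higher (5.68% of all genes) and without replicate 2 it called 3 (7.57%), while without either BAT-total library and with the replicate block it called 0. Mrc1, the mannose receptor, had 100 and 124 normalised counts in BAT-Mito and 21 and 17 in BAT-total. Csf1r, the receptor for macrophage colony-stimulating factor, had 133 and 41 against 15 and 13, and Lyz2, lysozyme, had 25 and 55 against 27 and 27. Cd68 was close to 0 in all libraries, with 8 and 0 against 5 and 7.

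Summed over the list, macrophage markers came to 400 and 420 normalised counts in BAT-Mito and 112 and 98 in BAT-total. Per macrophage marker count there were 0.998 and 1.68 class II counts in BAT-Mito and 1.62 and 1.72 in BAT-total, so that these ranges overlapped. For class I the ratio was 1.66 and 0.788 in BAT-Mito and 5.58 and 6.93 in BAT-total, and the ranges did not overlap. These ratios are descriptions, and the part of macrophage RNA in the class II values was not tested.

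Markers of dendritic cells, B cells and T cells were at or near 0. In BAT-Mito the 3 listed dendritic cell markers (of 8), the 3 listed B cell markers (of 6) and the 1 listed T cell marker (of 6) had 0 reads in both libraries. In BAT-total Ccr7 and Cd209a had at most 3 normalised counts, Pax5, Cd79b and Cd4 at most 2 and Ighm 5 and 22. Zbtb46, which is made by dendritic and also endothelial cells, had 47 and 60 there and was called lower in BAT-Mito by limma (at least 2.34-fold), but not with a pseudocount of 10, by edgeR or by DESeq2.

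Endothelial markers lay in the other direction. For all 6 endothelial markers both BAT-Mito libraries lay below both BAT-total libraries (52.1% of all genes). Summed normalised counts were 100 and 7, from 12 and 1 reads, against 904 and 971. The median log2 fold change was -4.95 and depended on the pseudocount. It was -3.23 with a pseudocount of 10, -3.73 with edgeR and -3.61 with DESeq2. Limma called Egfl7 lower (4.41% of all genes), a call lost with a pseudocount of 10. Lower calls by edgeR were Egfl7, Kdr and Pecam1 (0.596% of all genes) and by DESeq2 Egfl7 and Kdr (0.268%). Without BAT-Mito replicate 1 the median was -6.43 and without replicate 2 it was -3.12, and limma called all 6 lower in both fits. Kdr, a receptor for vascular endothelial growth factor, had 3 and 1 reads in BAT-Mito, which puts it at least 15.7-fold lower, while Cdh5, the cadherin of endothelial junctions, had 42 and 0 normalised counts against 257 and 236. The 6 brown adipocyte markers had a median of -1.77, which is -0.54 relative to that of all genes, with 0 calls by limma (2 lower at an unadjusted p under 0.05, as were 14.9% of all genes) or DESeq2 and 1, Dio2, by edgeR. Relative to all genes the median was -0.23 without BAT-Mito replicate 1, where limma called 2 lower, and -1.40 without replicate 2, where it called 6. Ucp1, the uncoupling protein that marks the tissue, had 1290 and 3554 normalised counts in BAT-Mito and 4819 and 4185 in BAT-total. Fabp4 had 957 and 2823 against 5208 and 4746, and Cidea had 117 and 414 against 1223 and 960. Of the 6, all but Dio2 (25 and 21) were higher in BAT-Mito replicate 2 than in replicate 1, as were the class II chains.

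**Figure D4:**
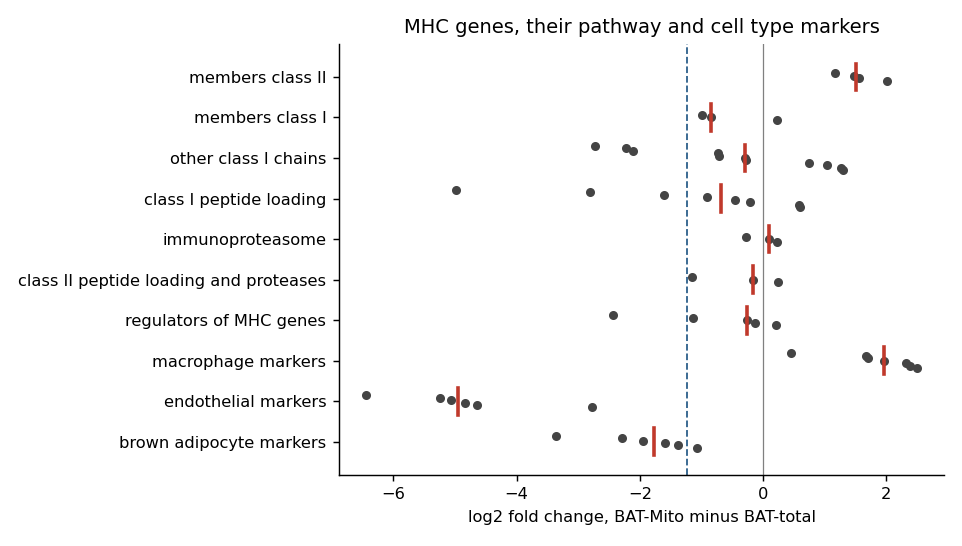
Log2 fold changes (BAT-Mito minus BAT-total, values as deposited) of the tested genes of each list, 1 point per gene, with the list median as a solid tick and the median of all genes tested, -1.23, as a dashed line. The class II chains (median 1.52) lie on the side of the macrophage markers (1.97), and class I (-0.85) near the other pathway genes.

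The genes whose profiles over the 4 libraries were most like that of Cd74, by the Euclidean distance of centred log2 values, were Blvrb (0.242), H2-Eb1 (0.280), Mir6236 (0.319), Ttl (0.355) and Ptgs1 (0.356). H2-Ab1 ranked 52 and H2-Aa 127 among the other genes tested, while H2-D1 ranked 2388 and H2-K1 3616. The genes most like B2m were Utp14b (0.0876), Prkcsh (0.112), Zfp282 (0.133), Rnf216 (0.156) and Ndufaf8 (0.171). H2-K1 ranked 1251 and H2-D1 1533 in their likeness to B2m, so that the class I chains did not follow each other closely. With 4 libraries such a likeness is a description.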

How the data were processed

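The 4 libraries were grouped by their titles into BAT-Mito and BAT-total. According to the study's methods and the submitters' processing notes, stranded total RNA libraries (10 ng input) were sequenced single end, trimmed with Trimmomatic, mapped by STAR to GRCm38 and assigned to genes by featureCounts, without reads of several genes or positions. The mitochondrial RNA was fragmented for a time of its own, so that library preparation may have differed with the group. The strand setting of the counting is not given in the sources used here. The authors deposited 1 table of 17259 genes whose values are a signal, gene counts divided by a DESeq2 size factor per library and rounded. The notes and the methods name different tool versions. From the deposited signal whole reads were recovered in BAT-Mito (100.0% of values within rounding of 0.5 units, 26288871 and 24910434 reads) and not in BAT-total, whose normalised totals were 1590096 and 1905303. In BAT-total the depth is thus unknown.

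Values were compared as log2(normalised count + 1) with limma 3.58.1 in R 4.3.3 over the 8215 genes with a mean of at least 10, with Benjamini-Hochberg adjustment over all of them. Fold changes are on this scale, and those of low genes depend on the pseudocount. For Zbtb46, with 0 reads in BAT-Mito, the value was -5.76, and -2.66 with a pseudocount of 10. A floor of 3 reads per BAT-Mito library (mean of both) set bounds. Intervals are 95% Wilson intervals. edgeR 4.0.16 and DESeq2 1.42.0 were run on reads, with BAT-total values taken as reads. On simulated data edgeR kept close to its threshold, whereas limma's calls held more unchanged genes than its threshold allows. That simulation took BAT-total values as reads and set its own spread between replicates. It therefore does not show how far the calls of either tool hold in these data. The members, lists and alternatives were chosen with earlier results of these data known. Named genes were the members, the 3 genes of each other list most abundant in BAT-total, listed genes past the threshold and the 5 profiles nearest to Cd74 and to B2m. Other listed genes were named after their values were seen. Alternatives covered the pseudocount, the filter, the scaling, the trend, the block, the tool and each library. A listed gene that is not reported here was left out of its list.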

Additional observations from a re-analysis of the deposited data

How the results depend on the processing

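Over 15 alternatives the class II minus class I difference stayed above 0, between 1.16 and 3.03. Each moved it by less than the pooled SD between replicates, which with 2 libraries holds by construction when 1 is left out. A mean of at least 50 removed H2-Aa and H2-Eb1 and gave no difference. The 0 members called higher became 1 without a filter (H2-Eb1, with 0.829% of all genes called higher), 3 with edgeR and 3 with DESeq2 on reads, for which the cause was not tested. The 0 members called lower became 7 with equal totals of all genes and 6 with equal totals of nuclear genes, where 96.9% and 87.2% of all genes were called lower, scalings under which the all-gene median was -7.15 and -4.41 in place of -1.23. With the first scaling the fold changes that reversed were -6.50 for B2m, -5.25 for Cd74, -5.36 for H2-Aa, -4.65 for H2-Ab1 and -4.99 for H2-Eb1, and with the second -3.28, -2.03, -2.26, -1.46 and -1.88. B2m also reversed to -0.42 without BAT-Mito replicate 1 and was 0.88 without replicate 2. Leaving out 1 library gave 0 to 3 members called higher and 0 to 1 lower: without BAT-Mito replicate 1 Cd74, H2-Ab1 and H2-Eb1 higher and H2-K1 lower, without BAT-Mito replicate 2 B2m, H2-Ab1 and H2-Eb1 higher. Those fits take their spread from BAT-total alone, assume that the lone BAT-Mito library varies like it, and called 5.68% of all genes higher and 41.1% lower without replicate 1 and 7.57% and 47.0% without replicate 2. The class difference then ran from 1.16 to 3.03. Without either BAT-total library 0 members and 0 of all genes were called.

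With the replicate block 0 members were called higher and 0 lower, and the class difference was 2.09 as without it. The labels give equal numbers but state no pairing. Across genes, the replicate 1 minus 2 differences of both groups had a correlation of 0.112, a single pair that cannot show a pairing. The adjusted p of H2-Ab1 ranged from 0.000806 to 0.844 over the alternatives, that of H2-Eb1 from 0.000269 to 0.844 and that of Cd74 from 0.000381 to 0.844, the lowest values being calls in the lower direction with equal totals of all genes.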
